A study of Mus musculus with 8 samples.

Results

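Cells carrying an empty vector, called pro-B(-)/Mock, were compared with pro-B(-), the parental line that had not been transduced. The members of the comparison were the arrays that the sample titles assign to each of these 2 groups, 2 arrays per group and 4 of the 8 arrays of the study, and the probes flagged as well above background in at least 1 group, on each array of that group. These were 23048 of the 39378 probes analysed, and they measured 12917 of the 20125 genes named on the array. The other 4 arrays measured pro-B(+), a line that keeps T-lineage potential, and pro-B(-)/LMO2, the pro-B(-) line transduced with Lmo2.

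All groups came from mouse pro-B cell lines deficient in Ebf1 that were grown out of fetal liver with stem cell factor, Flt3 ligand and IL-7. Per the study's methods, pro-B(+) was kept on OP9 stromal cells and pro-B(-) on TD7, a fetal thymic mesenchymal line, and transduced cells were returned to stromal cells after infection. The labels give neither the stromal cells and the time in culture of the transductants nor which of the study's mock vectors was used (a lentiviral vector marked with rat CD2 or a retroviral vector marked with human NGFR). No group was treated with any further agent, as far as the labels say. The design text and the titles disagree on 1 point, because the design text describes the arrays titled as empty vector as the line without potential. The titles were followed here, so each direction below rests on them. Nothing in the labels says that the replicates were separate cultures, so the p-values measure the spread between these arrays, which may be technical.

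The 2 groups were hybridised on different slides. Both pro-B(-) arrays shared a slide and a scan with pro-B(+), and both pro-B(-)/Mock arrays shared the other slide and scan with pro-B(-)/LMO2, so slide, scan and the state of the cells cannot be told apart in any value of pro-B(-)/Mock against pro-B(-).

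EBF1 is the transcription factor that commits lymphoid progenitors to the B lineage, and without it cells stop at an early pro-B stage and can be kept growing in culture. An empty vector is the control for the act of transduction itself: the vector inserts into the genome and expresses its marker but no gene of interest, and the carrying cells are selected and expanded. A comparison of such cells with the untransduced parent gives the distance between a control and its source.

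Levels are given as log2 of the spot signal minus the 75th percentile of the same array, so that 0 marks the upper quartile of an array and 1 unit is a factor of 2. Changes are differences of group means on this scale, pro-B(-)/Mock minus pro-B(-), and a gene was called where limma's moderated test gave a Benjamini-Hochberg adjusted p under 0.05 over all 23048 probes. Levels of different probes are not set against each other. Each of the 8 arrays had 56.5% to 61.2% of its probes well above background. Replicate arrays correlated at r = 0.999 over 20376 probes, with an SD of log2 differences of 0.130 to 0.150. Between a pro-B(-)/Mock array and a pro-B(-) array that SD was between 0.497 and 0.504. The 7 spike-in controls that were above background on every spot differed between the groups by -0.32 to 0.04 on the same scale, with a median of -0.17. A dimmer one of the same set, above background on a share of at least 0.93 of its spots per array, differed by -0.58. The rest of the set, not above background on any spot of these groups, differed by -1.49 and -0.18. Spots without RNA of the cells thus also differed between the groups. Groups on the same slide differed too. The bright spike-in E1A_r60_a22 lay at -0.02 and -0.05 in pro-B(+) against 0.25 and 0.40 in pro-B(-). On the other slide it lay at 0.74 and 0.53 in pro-B(-)/LMO2 against 0.18 and 0.12 in pro-B(-)/Mock. These differences are thus not those of the slides alone.

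The line's identity was first checked on X- and Y-linked transcripts. Xist, the RNA of the inactive X chromosome, lay at 1.22 and 1.29 in pro-B(-)/Mock, at 1.64 and 1.73 in pro-B(-) and at a mean of 1.62 in pro-B(-)/LMO2, and was not above background in pro-B(+), at a mean of -7.65. The Y-linked Eif2s3y was not above background on any array of those 3 groups and lay at 0.64 and 0.65 in pro-B(+). The Y-linked Ddx3y was above background on 1 pro-B(-)/Mock array, at -4.82, and not on the other, at -7.85. The empty-vector cells thus shared this pattern with pro-B(-) and not with pro-B(+). As a check of cell type, Il7r, Ptprc (CD45), Vpreb1 and Rag1 were above background on all 4 arrays. The Ebf1 probe lay at 1.50 and 1.48 in pro-B(-)/Mock and at 1.50 and 1.53 in pro-B(-). Since the place of this probe relative to the deleted part of the gene was not established, its signal checks nothing about the deletion.

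Empty-vector cells differed widely from their parent. Of the 23048 probes, 13662 (59.3%) passed the test, 6661 (28.9%) higher and 7001 (30.4%) lower in pro-B(-)/Mock, and the median size of a called change was only 0.39. At 2-fold or more, 1091 probes were called higher and 1060 lower, and at 10-fold or more 48 were higher and 91 lower. With 1 probe per gene, the brightest, 4050 of 12917 genes (31.4%) were called higher and 3801 (29.4%) lower, and at 2-fold or more 695 (5.38%) were higher and 561 (4.34%) lower. The median change over all tested genes was 0.01. The counts of large changes rest on dim signals: among the probes above background on all 4 arrays, 672 were called higher and 439 lower at 2-fold or more, and 15 were higher and 12 lower at 10-fold or more. Under normexp background correction with an offset of 50, 342 probes were called higher and 213 lower at 2-fold or more, and 9 probes changed by 10-fold or more.

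**Figure D1:**
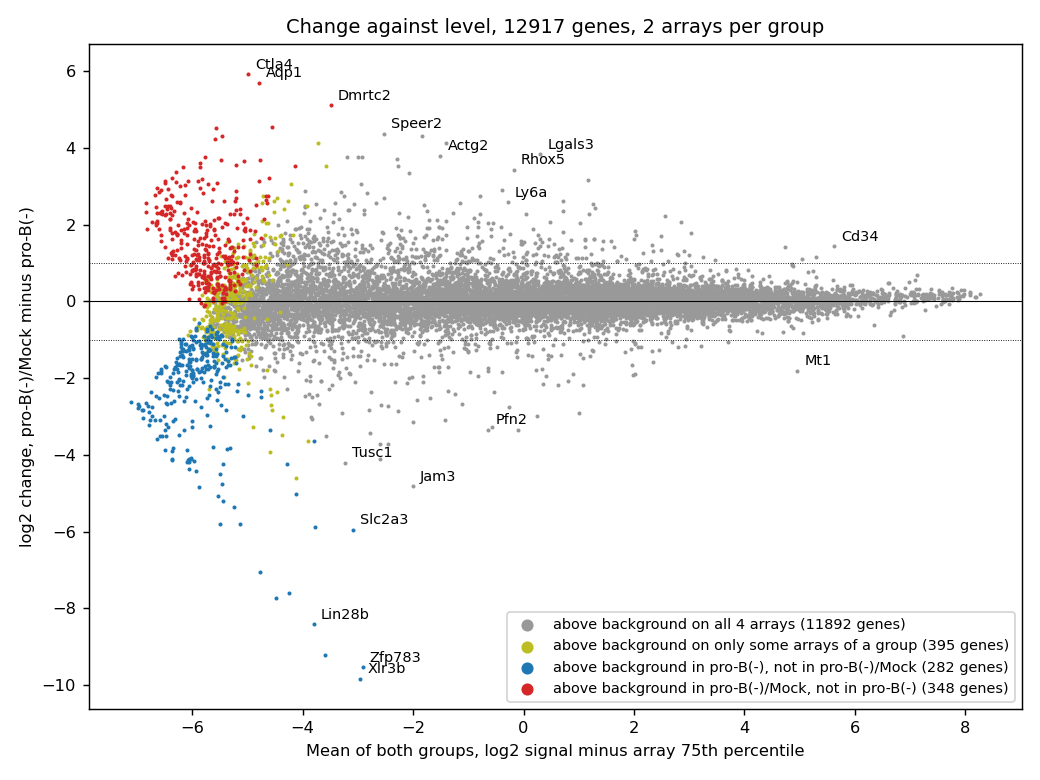
Each point is 1 of 12917 genes, with the mean level of both groups on the horizontal axis and the log2 change on the vertical axis; colours mark on which arrays the probe was above background, and dotted lines mark a 2-fold change. Xlr3b, Zfp783 and Lin28b, labelled at the foot of the plot, were above background on both pro-B(-) arrays and on neither pro-B(-)/Mock array.

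The deepest differences were genes that pro-B(-) expressed and pro-B(-)/Mock did not measurably express. Such genes, detected on both pro-B(-) arrays, on neither pro-B(-)/Mock array, and called at 2-fold or more, numbered 245. For them only a bound can be given, set against the lowest signal that was above background on each pro-B(-)/Mock array. The bound was 2-fold or more in 149 of them, with a median of 2.15-fold, and reached 10-fold in 15. Among the 5 with the largest bounds were 2 members of the Xlr family, X-linked genes of lymphoid and germ cells, the zinc finger gene Zfp783, the fetal RNA-binding protein gene Lin28b and the glucose transporter gene Slc2a3.

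Xlr3b lay at 1.93 and 1.96 on the pro-B(-) arrays and at -8.06 and -7.70, not above background, on the pro-B(-)/Mock arrays. It was at least 265-fold lower (adjusted p = 1.10e-05), and the groups did not overlap. Its neighbours Xlr4b and Xlr4a were at least 138-fold and 38.6-fold lower, and Xlr3a at least 7.2-fold lower. All 4 belong to 1 gene cluster with near-identical copies, so their probes may share transcripts.

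Zfp783 lay at 1.83 and 1.86 in pro-B(-) and at -7.53 and -7.83, not above background, in pro-B(-)/Mock, at least 247-fold lower (adjusted p = 1.44e-05). Both groups' replicates lay close together, and the other parental line, pro-B(+), carried the transcript at a mean of 0.11.

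Lin28b, which blocks maturation of let-7 microRNAs and marks fetal hematopoietic progenitors, lay at 0.40 and 0.42 in pro-B(-) and at -8.20 and -7.81 in pro-B(-)/Mock. It was at least 91.3-fold lower (adjusted p = 6.27e-05). A dimmer probe, likewise undetected in pro-B(-)/Mock, was at least 4.62-fold lower. Neither pro-B(-)/LMO2 array detected Lin28b, and pro-B(+) held it at a mean of 2.30.

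Slc2a3 lay at -0.10 and -0.15 in pro-B(-) and not above background in pro-B(-)/Mock, at least 60.9-fold lower (adjusted p = 4.46e-06). Cd55 and Cd55b, neighbouring genes for a surface protein that limits complement, were at least 44.8-fold and 14.6-fold lower, and Frzb, a secreted Wnt antagonist, at least 50.3-fold lower. These 3 were chosen after their values were seen, as was Dhdh, a dehydrogenase gene at least 29.0-fold lower. Each of these 4 was also below background on both pro-B(-)/LMO2 arrays and above it on both pro-B(+) arrays.

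Among genes above background on all 4 arrays, the 10 largest falls ran from 9.67-fold for Car12 to 28.3-fold for Jam3. Jam3, a junctional adhesion molecule of progenitors, lay at 0.42 and 0.39 in pro-B(-) and at -4.34 and -4.49 in pro-B(-)/Mock (log2 change -4.82 ± 0.09 SE, adjusted p = 2.15e-06). Tusc1, an intronless gene named as a tumour suppressor candidate, lay at -1.19 and -1.08 against -5.46 and -5.21, 18.4-fold lower. The groups of both genes did not overlap, but the size of the change depends on the background correction, since normexp gave log2 changes of -3.33 for Jam3 and -2.33 for Tusc1. Morn4 fell 17.2-fold, Dynlt3, a dynein light chain gene, 13.1-fold, and Ubqln2, a shuttle of ubiquitinated proteins, 13.1-fold. Ccdc113 (11.4-fold), Sdr42e1 (10.8-fold), Cstf2t, an intronless copy of an mRNA 3' end processing factor gene (10.3-fold), Pfn2, an actin-binding profilin (10.2-fold), and Car12, a membrane carbonic anhydrase (9.67-fold), completed the set. All 10 had adjusted p of 3.43e-05 or lower.

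**Figure D2:**
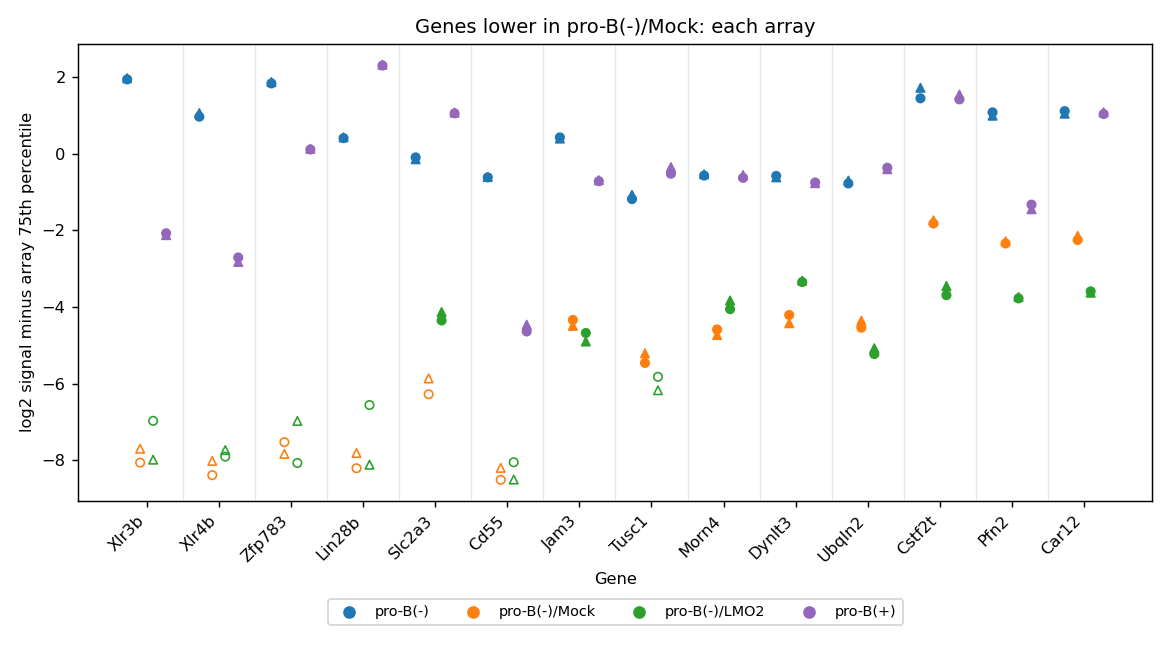
Levels of 14 genes that were lower in pro-B(-)/Mock, on each of the 8 arrays, with circles for replicate 1, triangles for replicate 2 and open symbols where the probe was not above background on both arrays of that group. Both pro-B(-)/Mock arrays lie below both pro-B(-) arrays in all 14 genes, which follows from how the genes were chosen. Both pro-B(-)/LMO2 arrays also lie below both pro-B(+) arrays, in some genes without being above background. Over all genes tested in both comparisons, 8.79% were called lower by 2-fold or more in pro-B(-)/LMO2 than in pro-B(+).

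The promoters of 4 of these genes and of 2 that rose are printed because the genes marked the extremes of the comparison and differ in CpG content, the sequence feature read by DNA methylation. Each is a window of 300 bases that spans a RefSeq start site in GRCm38.p6, most of it upstream, 5' to 3' on the gene's strand, with every CG in capitals. The promoter was the one with most CG where a gene had several. Zfp783 is at chr6:47942925-47943224 on the plus strand, Lin28b at chr10:45470152-45470451 on the minus strand, Xlr3b at chrX:73191929-73192228 on the plus strand, Tusc1 at chr4:93335462-93335761 on the minus strand, Speer2 at chr16:69863695-69863994 on the minus strand and Rhox5 at chrX:37754358-37754657 on the plus strand.
Zfp783: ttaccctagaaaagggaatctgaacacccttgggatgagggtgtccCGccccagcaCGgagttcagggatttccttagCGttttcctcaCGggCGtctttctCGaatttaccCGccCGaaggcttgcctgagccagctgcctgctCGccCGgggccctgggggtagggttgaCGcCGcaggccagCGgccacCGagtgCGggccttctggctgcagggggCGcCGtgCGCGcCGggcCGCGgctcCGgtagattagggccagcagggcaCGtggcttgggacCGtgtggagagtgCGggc
Lin28b: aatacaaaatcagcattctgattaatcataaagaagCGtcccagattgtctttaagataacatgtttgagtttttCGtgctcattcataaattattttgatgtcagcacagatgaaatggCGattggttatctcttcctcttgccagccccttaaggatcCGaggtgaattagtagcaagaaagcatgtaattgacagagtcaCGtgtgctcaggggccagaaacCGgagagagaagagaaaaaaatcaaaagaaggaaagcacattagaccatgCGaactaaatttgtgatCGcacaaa
Xlr3b: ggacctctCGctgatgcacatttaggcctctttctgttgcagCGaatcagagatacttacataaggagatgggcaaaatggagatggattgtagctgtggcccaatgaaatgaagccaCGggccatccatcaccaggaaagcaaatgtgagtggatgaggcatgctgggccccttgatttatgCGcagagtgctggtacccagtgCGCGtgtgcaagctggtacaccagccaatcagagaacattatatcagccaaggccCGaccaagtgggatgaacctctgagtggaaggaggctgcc
Tusc1: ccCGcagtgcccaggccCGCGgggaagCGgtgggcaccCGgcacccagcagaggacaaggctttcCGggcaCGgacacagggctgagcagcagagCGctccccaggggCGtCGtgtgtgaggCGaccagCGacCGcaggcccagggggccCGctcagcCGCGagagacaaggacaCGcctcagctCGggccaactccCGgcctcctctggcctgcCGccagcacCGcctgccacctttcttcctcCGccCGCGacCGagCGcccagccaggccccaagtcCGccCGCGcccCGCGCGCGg
Speer2: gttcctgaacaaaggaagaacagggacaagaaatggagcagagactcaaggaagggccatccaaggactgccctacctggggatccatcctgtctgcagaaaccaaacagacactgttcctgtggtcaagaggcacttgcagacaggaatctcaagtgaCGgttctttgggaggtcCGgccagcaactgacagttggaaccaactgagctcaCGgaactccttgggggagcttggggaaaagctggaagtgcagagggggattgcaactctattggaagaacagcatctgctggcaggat
Rhox5: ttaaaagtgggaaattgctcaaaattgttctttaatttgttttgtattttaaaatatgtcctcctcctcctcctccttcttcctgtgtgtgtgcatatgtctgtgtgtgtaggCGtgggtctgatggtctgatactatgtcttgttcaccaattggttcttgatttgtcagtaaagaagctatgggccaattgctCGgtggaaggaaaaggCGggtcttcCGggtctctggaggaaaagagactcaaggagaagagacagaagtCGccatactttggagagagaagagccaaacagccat

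The motif CG, which reads the same on both strands, occurred 33 times in the Tusc1 window and 26 times in that of Zfp783, against 8 in Lin28b, 7 in Xlr3b, 5 in Rhox5 and 3 in Speer2. Over the 32851 windows of 300 bases in the RefSeq table the median was 7, and 94.6% held at least 1 CG. Windows with as many as Tusc1 made up 8.56% and with as many as Zfp783 16.9%. Zfp783, Lin28b and Xlr3b were undetected in pro-B(-)/Mock, while Tusc1 fell but stayed above background. These genes were picked to differ in CpG content, so their counts say nothing about the genes lost as a set. A count over the whole set of 245 was void, because only 77.1% of those genes had a window in the table. Methylation itself was not measured.

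Genes detected on each pro-B(-)/Mock array and on neither pro-B(-) array, and called at 2-fold or more, numbered 209. Their bounds were low. In 88 of them the bound was 2-fold or more, in 2 it gave no fold, and the median of the rest was 1.83-fold. It reached 10-fold in 5, Dmrtc2, Aqp1, Ctla4, Speer3 and Pramel51. With each undetected gene set at its bound, 574 of all tested genes (4.44%) were called higher by 2-fold or more and 465 (3.6%) lower.

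Dmrtc2, a doublesex-related factor of germ cells, lay at -0.97 and -0.90 in pro-B(-)/Mock and at -6.14 and -5.97 in pro-B(-), at least 29.4-fold higher (adjusted p = 1.06e-06). Ctla4, the inhibitory receptor of T cells, lay at -1.97 and -2.08 against -8.12 and -7.78, at least 13.8-fold higher (adjusted p = 6.90e-06), and its genomic neighbour Icos was at least 2.01-fold higher. Neither Dmrtc2 nor Ctla4 was above background in pro-B(+), and both were above it in pro-B(-)/LMO2, at means of -0.33 and -1.14. Aqp1, a water channel of red cells and endothelium, was at least 14.5-fold higher. Pramel51, of a germline family, was at least 10.9-fold higher. The replicates of another water channel gene disagreed: Aqp5 lay at -5.38 on 1 pro-B(-)/Mock array and at -1.54 on the other, and was at least 5.09-fold higher than in pro-B(-) by their mean (adjusted p = 0.0225).

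All 7 tested members of the SPEER family, multicopy genes described from testis, rose, with a median log2 change of 4.14. In 6 the rise was 2-fold or more, and Speer4d had a bound of 1.99-fold. Of all tested genes 31.4% were called higher, and 4.44% by 2-fold or more with undetected genes at their bound. The array held 14 members, and the rest were not above background on both arrays of either group. Speer3 and Speer4d passed the filter only through pro-B(-)/Mock, so the direction of their change was set by the filter. Speer2 lay at -0.36 and -0.32 in pro-B(-)/Mock and at -4.66 and -4.78 in pro-B(-), a 20.8-fold rise (log2 change 4.38 ± 0.06 SE, adjusted p = 1.17e-06). Speer1 rose 17.6-fold and 4933402N22Rik, another member, 19.9-fold. Speer5-ps1 rose 13.5-fold, and Speer3, with pro-B(-) not above background, was at least 11-fold higher. Speer2 lay at a mean of -2.34 in pro-B(-)/LMO2 and -2.58 in pro-B(+), between pro-B(-) and pro-B(-)/Mock. The members share near-identical sequence, so the 7 values may not be separate measurements.

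Rhox5, an X-linked homeobox gene that DNA methylation silences in most somatic cells, lay at 1.53 and 1.55 in pro-B(-)/Mock and at -1.79 and -2.01 in pro-B(-), 10.8-fold higher (adjusted p = 3.81e-06). It was the 1 gene called higher among the 12 tested genes of the germline and Xlr list, of which 8 were called lower. The shares over all tested genes were 31.4% higher and 29.4% lower. Germline-type genes outside that list also rose, among them Dmrtc2, Pramel51 and Xlr itself, the last with a bound of 1.04-fold. The median of that list was -1.72, or -0.91 with each undetected gene at its bound, and on that scale 5 of the 8 were lower by 2-fold or more, 4 of them of the Xlr cluster. Mael, a factor of the piRNA pathway, was at least 1.81-fold lower. Restricted to probes above background on all 4 arrays, 2 of the list's genes were called lower. Mael and the 4 genes of the Xlr cluster passed the filter only through pro-B(-). Dmrtc2, Pramel51 and Xlr passed it only through pro-B(-)/Mock. The direction of these changes was set by the filter, so they do not bear on which way such genes moved.

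The other large rises, above background on all 4 arrays, included the galectin gene Lgals3, which rose 14.3-fold, from -1.58 and -1.66 in pro-B(-) to 2.19 and 2.25 in pro-B(-)/Mock (adjusted p = 9.06e-07). Lgals3 is high in macrophages and activated cells, and it lay at a mean of 4.67 in pro-B(+). The smooth muscle actin genes Actg2 and Acta2 rose 13.9-fold and 11.6-fold. Acta2 lay at -0.50 and -0.51 against -4.05 on both pro-B(-) arrays. Prkar1b, a regulatory subunit of protein kinase A, rose 13.6-fold, and Timp1, an inhibitor of matrix metalloproteinases, 13.1-fold. Arhgap6, a GTPase-activating protein, rose 13.7-fold by its brightest probe, while a second probe, not above background in pro-B(-), was not called (1.61, adjusted p = 0.145). By the brightest probe, the replicates of each of these genes lay within a fraction of 1 unit of each other and the groups did not overlap. Under normexp the log2 change was 2.95 for Speer2, 2.44 for Acta2 and 3.51 for Lgals3, against 4.38, 3.54 and 3.84.

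**Figure D3:**
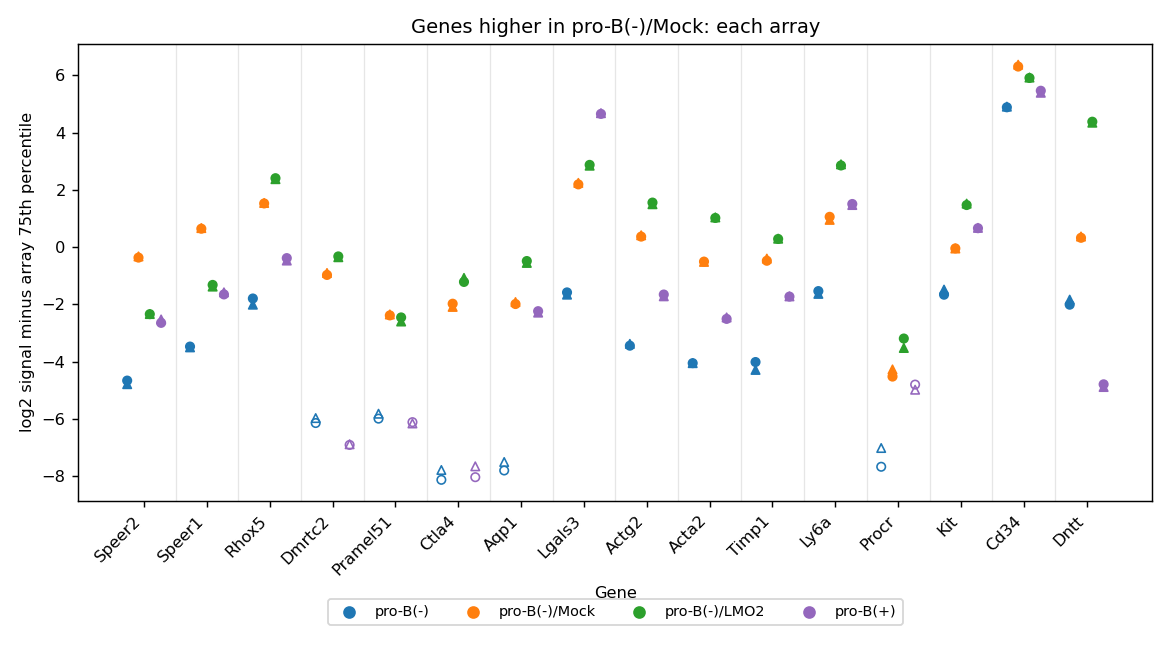
Levels of 16 genes that were higher in pro-B(-)/Mock, on each of the 8 arrays, with circles for replicate 1, triangles for replicate 2 and open symbols where the probe was not above background on both arrays of that group. Both pro-B(-)/Mock arrays lie above both pro-B(-) arrays in all 16 genes, which follows from how the genes were chosen. In Speer2 and Speer1 the pro-B(-)/Mock arrays also lie above the arrays of the other groups.

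Some changes lay side by side on chromosomes. Ordered along the genome, tested genes that were called at 2-fold or more in the same direction formed 94 runs of 2 or more neighbours. Of these runs, 20 held 3 or more genes. With 5.38% of all tested genes higher and 4.34% lower by 2-fold, some runs form at random, and how many was not computed. The longest run held 6 genes of the Serpinb6 and Serpinb9 cluster on chromosome 13, all higher, where Serpinb9f was at least 5.98-fold higher. A run of 5 on chromosome X was of the Xlr3 and Xlr4 cluster, all lower. Another run of 5 on chromosome X, with Slx, was all higher, as was a run of 3 with Xlr. A run of 4 on chromosome 11 was Myo1d, Tmem98 and the chemokine genes Ccl2 and Ccl7, all higher. Runs of related genes are open to probes that share transcripts. Chromosome X held 14 of the 60 genes lower by 10-fold or more (23.3%) and 3 of the 31 higher by that much, against 3.30% of all tested genes. The 14 included Xlr3b, Xlr4b and Xlr4a, so they may not be separate measurements. Medians of whole chromosomes stayed between -0.04 and 0.06.

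Stem and progenitor genes moved both ways, and all 19 tested were called, 11 higher and 8 lower, with a median of 0.61 against 0.01 over all genes. Among all tested genes 31.4% were called higher and 29.4% lower. With undetected genes at their bound, 7 genes of the list (36.8%) were higher by 2-fold or more, against 4.44% of all tested genes. Ly6a, which encodes the stem cell antigen Sca-1, lay at 1.06 and 0.96 in pro-B(-)/Mock and at -1.53 and -1.63 in pro-B(-), 6.02-fold higher (adjusted p = 3.41e-06). Kit, the receptor of stem cell factor, rose 2.88-fold, from -1.66 and -1.48 to -0.04 on both arrays, and Cd34, a surface sialomucin of progenitors, rose 2.72-fold, from 4.89 and 4.91 to 6.31 and 6.37. Procr, the endothelial protein C receptor of stem cells, was at least 2.67-fold higher. Lin28b was the 1 gene of the list lower by 2-fold or more, and Cd48 and Hhex fell by 0.74 and 0.57 on the log2 scale. Under normexp 5 genes of the list were called lower.

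Of 23 B-lineage genes 8 were called higher and 7 lower, with a median of 0.00, shares near the 31.4% higher and 29.4% lower of all tested genes. Dntt, the terminal transferase that adds bases at V(D)J junctions, rose 4.83-fold, from -2.01 and -1.83 to 0.33 and 0.37 (adjusted p = 8.53e-06), and Ly6d, a marker of B-lineage entry, rose 3.05-fold. The recombinase genes Rag1 and Rag2 fell 2.04-fold and 1.88-fold, Rag2 from 0.61 and 0.60 to -0.31 on both arrays. Cd79a, a signalling chain of the B cell receptor, was at least 1.61-fold lower, although its call was lost under normexp (adjusted p = 0.075). Pax5 lay at -5.34 and -5.13 against -5.43 and -5.10 (adjusted p = 0.868). Without pro-B(-)/Mock replicate 2, 3 genes of the list were called lower.

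T-lineage genes were called higher in 12 of 20 and lower in 3, with a median of 0.33, against 31.4% higher and 29.4% lower over all tested genes. With undetected genes at their bound 5 (25%) were higher by 2-fold or more, and none fell by as much. The shares over all tested genes on that count were 4.44% higher and 3.6% lower. Trat1, an adaptor of the T cell receptor, rose 3.16-fold, Cd2, an adhesion receptor, 2.34-fold, and Gata3 1.84-fold. Since 1 of the possible mock vectors is marked with rat CD2, its transcript may add to the Cd2 signal, which was not tested. Tcf7 and Il2ra, which turn on as T-lineage differentiation starts, were not above background on any of the 4 arrays, and in pro-B(-)/LMO2 they lay at means of 1.79 and 0.95. Without pro-B(-) replicate 1, and without pro-B(-)/Mock replicate 1, 1 gene of the T-lineage list was called lower. Of 11 NK and cytotoxic genes, 9 were called higher, led among those above background on all 4 arrays by Il2rb, a chain of the IL-2 and IL-15 receptors, at 2.75-fold, and 2 lower, with Gzmc, a granzyme, at least 2.12-fold lower.

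Of 22 myeloid genes 6 were called higher and 8 lower, with a median of -0.02, again near the 31.4% and 29.4% of all tested genes. Besides Lgals3, Ly6c1 rose 5.83-fold, from 0.06 and -0.09 to 2.57 and 2.49. Lyz1, lysozyme, fell 3.51-fold and Mpo, myeloperoxidase, 1.99-fold. Of 7 erythroid and megakaryocyte genes 5 were called higher and 1 lower, none by 2-fold.

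Stromal and mesenchymal genes were called higher more often than any other list of over 20 tested genes: 27 of 32 rose and 2 fell, with a median of 1.19. Of all tested genes 31.4% were called higher and 29.4% lower. With undetected genes at their bound, 16 (50%) rose by 2-fold or more, against 4.44% of all tested genes, and the median was 0.98. Besides the actins, Myl9, a myosin light chain of smooth muscle, rose 10.2-fold, Fn1, fibronectin, 3.43-fold, Col1a1, a collagen chain, 3.12-fold and Sparc, a matrix protein, 2.19-fold. Ccn2, a matricellular growth factor, was at least 5.64-fold higher, and Postn, periostin, at least 3.79-fold. Fn1 lay at 3.86 and 3.97 against 2.09 and 2.19. Lpl, lipoprotein lipase, fell 1.58-fold by its brightest probe, while a second probe gave 0.34 (adjusted p = 0.642), and Col3a1 lay at -5.18 and -5.11 against -5.18 and -4.49 (adjusted p = 0.282). Summed over the 32 genes in multiples of the array's 75th percentile, the list stood at 39.4 and 40.9 in pro-B(-)/Mock, 17.7 and 18.4 in pro-B(-), 41.8 and 41.5 in pro-B(+) and 60.0 and 58.7 in pro-B(-)/LMO2. The fibroblast markers Dcn and Lum were not above background on any of the 8 arrays, and Col5a2, Cnn1, Igfbp7 and Cav1 were not above background on both arrays of either group. All groups grew on stromal cells. More such cells and more of these transcripts per cell cannot be told apart in bulk RNA, and the part of carried-over stromal RNA in these rises was not tested.

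Interferon-stimulated genes were called lower in 16 of 34 and higher in 7, with a median of -0.23. Beside this and the MHC counts below stand 29.4% lower and 31.4% higher over all tested genes. Oas1a, a sensor of double-stranded RNA, was at least 6.50-fold lower, with the pro-B(-)/Mock arrays at -7.99 and -6.45 and the pro-B(-) arrays at -3.42 and -3.39. Rtp4 fell 5.11-fold, from 0.66 and 0.63 to -1.83 and -1.59, Usp18, a brake on interferon signalling, 2.35-fold and Rsad2, the antiviral enzyme viperin, 2.10-fold. The exception of size was Ifitm3, a restriction factor of viral entry, which rose 4.35-fold, from -2.76 and -2.78 to -0.66 and -0.64. The 7 higher calls became 3 without pro-B(-) replicate 1 and 4 without pro-B(-) replicate 2 or pro-B(-)/Mock replicate 2. Of 13 genes of the MHC class I pathway 7 were called lower and 2 higher, none by 2-fold, although a dimmer probe of H2-K1 gave -1.99 against -0.61. Of 9 MHC class II genes 6 were called higher and 2 lower, with H2-Eb1 2.86-fold higher and Ciita, the class II transactivator, at a change of -1.51 and above background on 1 of the pro-B(-)/Mock arrays.

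**Figure D4:**
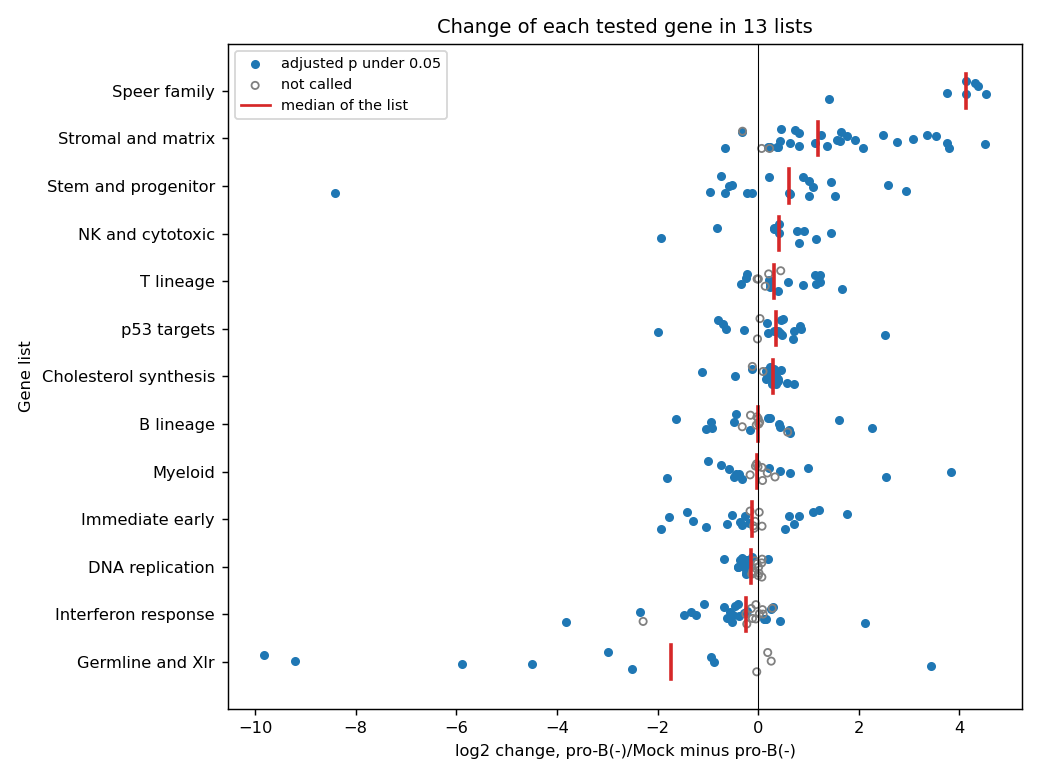
Log2 change of each tested gene in 13 of the lists, with filled points for called genes, open points for genes not called and a bar at the median of the list. The median is 4.14 for the SPEER family, 1.19 for stromal genes, -0.23 for interferon genes and -1.72 for germline and Xlr genes.

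Immediate-early genes fell in 11 of 24 and rose in 7, with a median of -0.13, against 29.4% lower and 31.4% higher over all tested genes, so the rises were no more frequent than elsewhere. Fosb fell 3.83-fold, Fos 3.43-fold, from 1.11 and 1.13 to -0.65 and -0.66, and Jun 2.67-fold, all subunits of AP-1, while Egr2, a zinc finger factor, rose 3.43-fold.

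Of 20 p53 targets 13 were called higher and 5 lower, with a median of 0.35. For this list and those below, the shares over all tested genes were 31.4% higher and 29.4% lower. Gdf15, a stress-induced cytokine, rose 5.73-fold, from -3.07 and -3.05 to -0.57 and -0.52, and Cdkn1a, the p21 cell cycle inhibitor, 1.65-fold. Fas, the death receptor, fell 3.97-fold and Cdkn2a 1.75-fold. Ccnd1, cyclin D1, rose 5.96-fold, from -4.01 and -3.92 to -1.40 and -1.37, and was the 1 gene of 16 cyclins and CDK inhibitors that changed by 2-fold or more. DNA replication genes were called lower in 15 of 28 and higher in 1, all by less than 2-fold, with a median of -0.15, and Tyms, thymidylate synthase, fell 1.60-fold. Cholesterol synthesis genes were called higher in 17 of 22, all by less than 2-fold, with a median of 0.30, and Hmgcs1, an early enzyme of the pathway, rose 1.65-fold. The 3 lower calls of that list became 1 without pro-B(-) replicate 1 and without either pro-B(-)/Mock replicate.

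Of the genes on which the study turns, Lmo2, Bcl11a, Meis1 and Hmga2 lay closer to the parent than to pro-B(+). Lmo2 lay at 0.35 on both pro-B(-)/Mock arrays and at 0.62 and 0.63 in pro-B(-), 1.21-fold lower (adjusted p = 1.27e-03), against a mean of 2.09 in pro-B(+). Bcl11a, a factor needed for lymphoid progenitors, lay at -3.77 and -3.81 against -3.10 and -2.98, 1.68-fold lower, and at a mean of 2.53 in pro-B(+) and 2.07 in pro-B(-)/LMO2. Meis1, a cofactor of HOX proteins, was 2.01-fold higher and Hmga2, a chromatin protein of fetal stem cells, also 2.01-fold, and both stayed more than 10-fold below the pro-B(+) means of 1.39 and 2.67. A dimmer probe of Hmga2, not above background in pro-B(-), was at least 1.65-fold higher. Hhex fell by 0.57 and Lyl1, a partner of LMO2, by 0.22 on the log2 scale, the latter not called under normexp (adjusted p = 0.058). Erg rose 1.53-fold by its brightest probe, while a second probe was not called (0.32, adjusted p = 0.094). Ptprc rose by 0.41 and Bcl2, which blocks apoptosis, by 0.16 on the log2 scale, the last not called under normexp (adjusted p = 0.123). Myc lay at 1.58 and 1.55 against 1.62 and 1.70 (adjusted p = 0.171). Cd44 differed by 0.22 (adjusted p = 0.0424) and lost its call without pro-B(-) replicate 1 (0.14, adjusted p = 0.175), pro-B(-)/Mock replicate 1 (0.24, adjusted p = 0.0943) or replicate 2 (0.20, adjusted p = 0.154).

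Notch receptor genes gave unequal values. By the brightest probe Notch1 lay at -2.21 and -1.95 in pro-B(-)/Mock and at -1.04 and -0.96 in pro-B(-) (log2 change -1.08, adjusted p = 7.89e-04), but a second probe gave 0.57 (adjusted p = 0.0764), so no direction is drawn for it. Notch3 rose 1.99-fold. Notch2 (0.07, adjusted p = 0.342) and Notch4 (0.14, adjusted p = 0.0948) were not called, and a second, dimmer Notch2 probe gave -0.96 (adjusted p = 2.64e-03). Of 20 genes of the pathway 6 were called higher and 6 lower, with a median of 0.04, near the 31.4% and 29.4% of all tested genes. At 2-fold or more, with undetected genes at their bound, none was higher and 3 (15%) were lower. The shares over all tested genes on that count were 4.44% higher and 3.6% lower. Maml2, a coactivator, was at least 1.84-fold lower.

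Among the bright genes changed by 2-fold or more, Jchain, the joining chain of polymeric immunoglobulins, rose 2.68-fold, Anxa1, an annexin, 2.24-fold, and Mgst2, a microsomal glutathione transferase, 2.23-fold. Mt1, a metal-binding metallothionein, fell 3.50-fold, from 5.87 and 5.86 to a mean of 4.05, and kept that size under normexp (log2 change -1.83 against -1.81). Ctr9, a subunit of the PAF1 complex of transcription, fell 2.39-fold, Tnni2, a troponin of fast muscle, 2.25-fold, and Lst1, a leukocyte transmembrane gene, 2.09-fold. Dcaf12l2 fell 2.23-fold by its brightest probe, while a second probe gave 0.24 (adjusted p = 0.281). Rps3, a ribosomal protein gene, rose 2.14-fold with pro-B(-) replicates at 4.69 and 4.29, and its call was lost without pro-B(-) replicate 2 (0.90, adjusted p = 0.0619) and without pro-B(-)/Mock replicate 1 (1.06, adjusted p = 0.0539).

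The remaining lists are given as genes called at 2-fold or more, with undetected genes at their bound, against 4.44% higher and 3.6% lower over all tested genes. On this count, 3 of 27 cytokine receptor and feedback genes were higher, among them Socs1, a feedback inhibitor of cytokine signalling, at 3.10-fold. Of 22 chemokine genes 4 (18.2%) were higher and 2 (9.09%) lower, with Cxcr5, a homing receptor of lymphoid follicles, 5.09-fold higher and Ccl2 at least 5.89-fold higher. Of 23 adhesion genes 3 were higher and 1, Jam3, lower. Of 20 HOX, MEIS and PBX genes 2 were higher and 1, Hoxa11, was 3.84-fold lower. Of 12 imprinted genes 1 (8.33%) was higher and 2 (16.7%) lower, with Dlk1, a paternally expressed ligand, 5.27-fold lower. Of 26 glycolysis and hypoxia genes none was higher and 2 were lower, Slc2a3 and Egln3, an oxygen sensor that fell 6.37-fold. Of 21 ATF4 targets 1 was higher and 1 lower, of 13 NF-kB targets 1 higher and 1 lower, of 18 LMO2 partners and E proteins 2 higher, of 20 nucleic acid sensors 1 lower, of 13 BCL2 family genes 1 higher and of 16 unfolded protein response genes 1 higher. Of 10 heat shock genes 1 was higher, the cochaperone gene Bag3 at 3.69-fold. No mitotic gene of 22, no DNA methylation and silencing gene of 24 and no reference gene of 14 changed by 2-fold.

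The comparison that crosses the same 2 slides without sharing an array, pro-B(-)/LMO2 against pro-B(+), was set beside these values. Over the 12734 genes tested in both, 8.89% were called higher at 2-fold or more in pro-B(-)/LMO2 and 8.79% lower. Of the 561 genes lower by 2-fold or more in pro-B(-)/Mock, 524 were tested there, and 393 of these (75%) were also lower in pro-B(-)/LMO2 than in pro-B(+), against 10 that were higher. Of the 695 higher genes, 669 were tested, and 332 (49.6%) were higher and 51 lower. All 53 tested genes of the 60 that were 10-fold or more lower were lower there as well. Of the 30 tested among the 31 that were 10-fold or more higher, 20 were higher and 1, Lgals3, was lower. Many of these genes entered the second comparison through 1 group only, so the filter set their direction there. Only pro-B(+) brought in 40 of the 60 genes and 189 of the 561. Only pro-B(-)/LMO2 brought in 9 of the 31 and 91 of the 695. Across the 12734 genes the 2 changes correlated with r = 0.595 (Spearman's coefficient = 0.551), and across the 11642 genes above background on all 8 arrays with r = 0.519. Genes are not independent replicates, so no p is given. Both comparisons set a transductant of pro-B(-) on slide 2 against a parental line on slide 1, and transduction, culture and slide cannot be told apart in them. The second also sets cells of different origin, by Xist and the Y-linked transcripts, and of different Lmo2 status against each other. Speer2 differed by 0.25 between the means of pro-B(-)/LMO2 and pro-B(+).

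**Figure D5:**
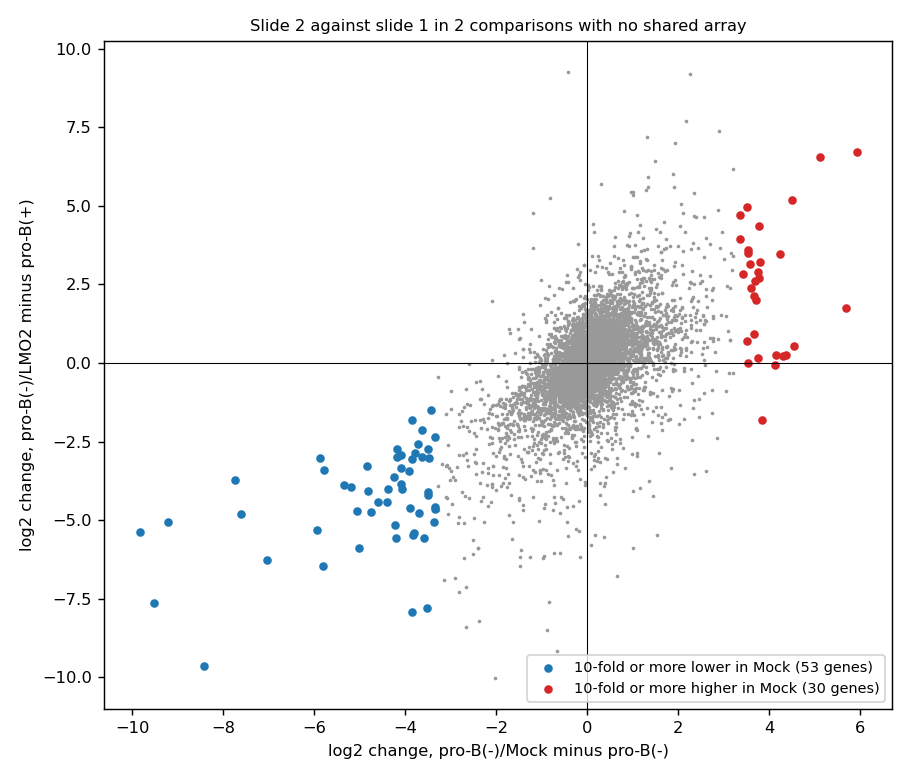
Each point is 1 of 12734 genes, with the log2 change of pro-B(-)/Mock against pro-B(-) on the horizontal axis and of pro-B(-)/LMO2 against pro-B(+) on the vertical axis; genes changed by 10-fold or more in the first are coloured. All 53 blue points lie below 0 on the vertical axis, and the red points spread from below 0 to above 6. Of the blue points, 40 are genes not above background in pro-B(-)/LMO2, so the filter set their side of 0 there.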

How the data were processed

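Total RNA of 8 samples was labelled with Cy3 and read on one-colour Agilent mouse arrays, 1 array per sample. The spot intensity was deposited by the authors as Agilent Feature Extraction output, per the file headers already background subtracted. The authors also deposited a matrix on the log2 scale, normalized to the 75th percentile in GeneSpring, used as an alternative. Flags for spots well above background came with the scanner output.

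Of 39429 probes without controls, 51 had an outlier flag on every spot of an array and were left out. Spots of a probe were averaged as log2 intensity, and the array's 75th percentile was subtracted. All 8 arrays entered 1 fit of 4 group means in limma 3.58.1 (R 4.3.3), with 4 residual degrees of freedom. The fit was tested on simulated data. Probes were named through a RefSeq table of GRCm38.p6 (26550 probes, 67.4%), and the array design used another build, so only promoter windows carry coordinates. The brightest probe stood for a gene. Named genes were the 10 largest changes each way above background on all 4 arrays, the 5 largest bounds each way, up to 4 per list and direction, the study's genes and the 5 brightest each way at 2-fold or more. Some of these genes are not reported here. The members and gene lists were chosen with earlier results of these data known. Counts and medians with undetected genes set at their bound were added after the data were seen. Replicate numbers did not pair the samples. The number of arrays limits the precision. Alternatives were median scaling, quantile normalization, normexp, the deposited matrix, no filter, a filter on all 4 arrays, only the 4 arrays, a replicate block, an intensity trend with a robust prior, the second probe of a gene and leaving out each array. Normexp used the spot's median signal in place of the mean signal first planned, a change made once the columns of the scanner output were known, with an offset of 50, and replaced local backgrounds over 100 by the array's median.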

Additional observations from a re-analysis of the deposited data

How the results depend on the processing

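The number of probes called stayed within 1.5 times of 13662 under every alternative run, between 10968 and 14349, with 10968 to 11621 when 1 array was left out. The counts of large changes did not: at 2-fold or more, 342 probes were called higher and 213 lower under normexp, 672 and 440 when only probes above background on all 4 arrays entered the fit and the adjustment, and 1308 and 3305 without a filter on dim probes, against 1091 and 1060. At 10-fold or more there were 9 under normexp (2 higher, 7 lower) and 27 under that filter (15 higher, 12 lower), against 139. Without the filter the median change moved to -0.18 and 28.4% of the 2-fold calls were higher, against 50.7%, and under normexp 61.6%.

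Samples with the same replicate number did not deviate together (r = 0.01 between the groups compared), so the numbers do not pair the arrays, and with the replicate as a block 13287 probes were called. A fit with slide as a block was not possible, since each group lay on 1 slide. Under quantile normalization Actb (-0.0746) and Hsp90ab1 (-0.0371) changed sign. The second probe of a gene had the opposite sign for Birc5 (-0.0291), Cdc6 (0.00787), Dcaf12l2 (0.24), Dnaja1 (0.16), Lpl (0.34), Notch1 (0.57), Notch2 (-0.96), Runx1 (0.0826), Tet3 (0.0669), Tfrc (-0.11) and Tlr7 (-0.23). The cause was not tested for any of these.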
